A study of Mus musculus with 5 samples.

Results

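The core G1 checkpoint genes were followed in mouse embryonic fibroblasts (MEFs) that were turned towards neuron-like cells by a change of medium. They are the D-type cyclins Ccnd1, Ccnd2 and Ccnd3, the CDK inhibitors Cdkn1a, Cdkn1b, Cdkn1c, Cdkn2a, Cdkn2b and Cdkn2c, and Trp53, which encodes p53. The genes were chosen by name, and all 10 were found, with 1 gene identifier each, among the 27729 genes of every library. RNA of ICR-strain MEFs in serum-containing MEF medium (day 0) and of the same kind of cells on days 2, 5, 10 and 14 of 5C medium was sequenced, with 1 library per day. The 5C medium is serum-free and holds the N2 supplement with insulin, bFGF, LIF, vitamin C and 2-mercaptoethanol, and the labels name no transgene or deletion. The labels name the medium 6C, and they differ from the study's methods in the number of cells seeded. The last library is labelled day 14, although the treatment text beside that label names the day after it. The MEFs came from embryos without head and internal organs and had been passaged in culture, and a short trypsin treatment with washes was used to take out weakly attached cells and those able to form neurons. They are a mixture of cells and not a cloned line.

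Before a cell copies its DNA, D-type cyclins bind the kinases CDK4 and CDK6 and start the phosphorylation of the retinoblastoma protein, which releases E2F factors. INK4 inhibitors (p16Ink4a, p15Ink4b and p18Ink4c) block CDK4 and CDK6 directly, while CIP/KIP inhibitors (p21, p27 and p57) bind whole cyclin and kinase complexes, among them those of CDK2. The Cdkn2a gene also makes p19Arf from a second start site and another reading frame, and p19Arf holds the ubiquitin ligase Mdm2 away from p53, which in turn switches on Cdkn1a. In cultured MEFs p16Ink4a and p19Arf are known to accumulate with passages in serum.

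The values below are of 3 kinds. An expected count is the authors' estimate of the reads from a gene in a library, and summed over all genes it came to between 2253748 (day 2) and 3890334 (day 0), where 3 counts, the smallest number read as signal, are worth 0.771 to 1.33 per 1000000 counts. A normalized count is the expected count scaled to equal library sizes, and compares 1 gene between days. TPM values (transcripts per 1000000, divided by gene length) compare genes within 1 library. Changes are log2 ratios to day 0 of normalized counts plus 1, a gene is called higher or lower when its change is over 2-fold, and brackets give the exact 95% interval of the counts in both libraries. With 1 library per day there is no replicate error and no test: intervals cover counting error only, and reads without molecular identifiers are not independent molecules.

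All 12 fibroblast markers had 3 or more counts in every library, and their summed normalized count lay between 23410 (day 2) and 72940 (day 14). Collagens made up most of this sum, and its markers went opposite ways. From day 0 to day 14 Col3a1 went from 1316 to 19190, and Twist2 from 271.7 to 40.8. On days 10 and 14, 4 of the 12 were called higher and 3 lower. That is near the shares of all genes, 28.7% and 22.3% on day 10 and 24.5% and 19.9% on day 14. Of 12 neuron markers 5 to 7 had 3 or more counts on each day, their sum lay between 336.3 and 712.3, and Rbfox3 was at 0 in every library. Within that sum the markers went opposite ways. Tubb3 had normalized counts of 22.15, 39.80, 91.76, 84.24 and 160.8, and Nefl had 1.65, 21.71, 72.63, 17.85 and 4.47. Stmn2 had 447.8, 264.0, 62.13, 71.41 and 163.0. The sum of 10 markers of Schwann cells and neural crest went from 160.3 (day 0) through 230.0, 1280 and 8296 to 11250 (day 14). The sum of 12 macrophage markers was 261.1 on day 0, when Cd5l was at 0, and 2338, 4327, 2660 and 1967 afterwards. The sums of 6 astrocyte markers were 584.9, 1476, 1054, 928.4 and 844.7. Gja1 was the largest part of each, at 560.1, 1192, 791.1, 513.4 and 453.2, while Gfap had 0, 12.66, 45.5, 219.9 and 134.1. On days 10 and 14, 5 of these 6 markers were called higher and 0 lower, against the same shares of all genes as above. The sums of 6 skeletal muscle markers, which Acta1 led on day 0, were 618.7, 102.5, 15.06, 12.31 and 13.58. In the shallow day 2 library Gm42418 held 4.79% and Lars2 1.36% of the counts, against at most 0.109% and 0.0666% elsewhere. In bulk RNA, fewer cells of a type and less RNA per cell cannot be told apart.

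**Figure D1:**
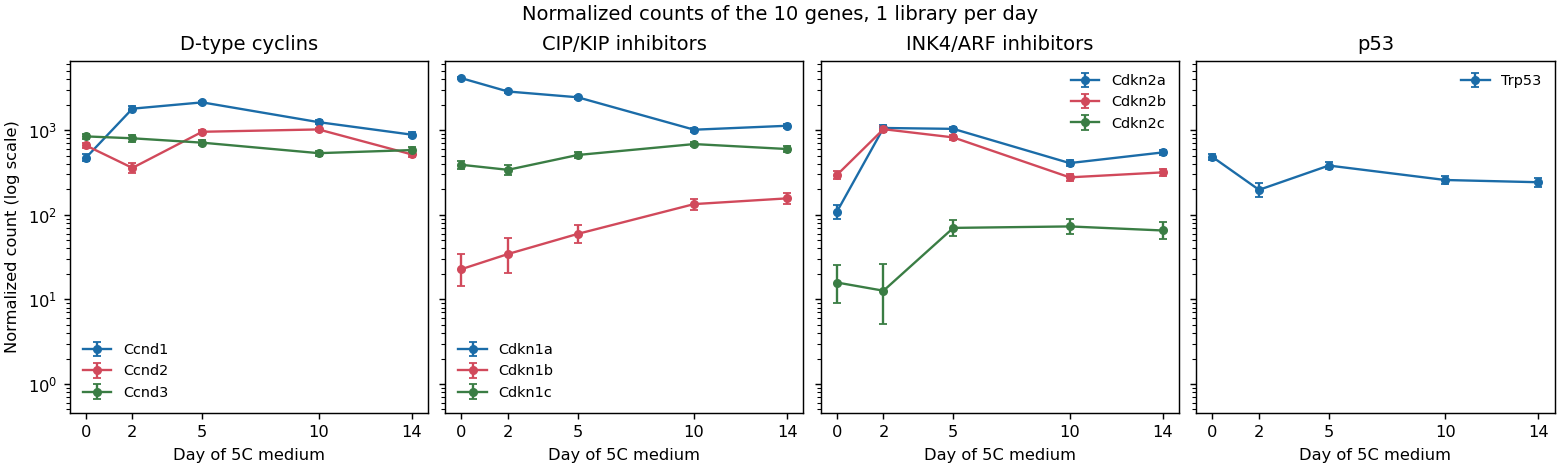
Normalized counts (log scale) of the 10 genes against the day of 5C medium, in panels for D-type cyclins, CIP/KIP inhibitors, INK4/ARF inhibitors and p53. Points are single libraries, and bars are 95% intervals for counting error. Cdkn1a starts at 4119 and ends at 1128, Cdkn1b goes from 22.76 to 156.4, and Cdkn2b is highest on day 2 at 1028, while Cdkn2a is at 1062 on day 2 and 1037 on day 5, which do not differ beyond counting error.

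Among the D-type cyclins, Ccnd1 was up to 4.52-fold higher in 5C medium than in MEFs, Ccnd2 had its lowest normalized count on day 2 and its highest on days 5 and 10, and Ccnd3 was close to its day 0 value on day 2 and lower later. Ccnd1 (ENSMUSG00000070348, GRCm38 chr7:144929931-144939925, minus strand) is the D cyclin best known as a target of growth factor and Ras signals. Its normalized counts were 471.6, 1796, 2133, 1245 and 885.8 in the order of the days. The day 0 library was thus the lowest of the 5. The log2 changes were 1.93 (1.77 to 2.09), 2.18 (2.03 to 2.32), 1.40 (1.25 to 1.55) and 0.91 (0.75 to 1.07), so that Ccnd1 was called higher on days 2, 5 and 10 but not on day 14. Ccnd1 shares 818 of its 3835 exon bases with LTO1, a gene on the opposite strand, and no source used here says that reads were counted by strand. LTO1 itself had normalized counts of 599.3, 6282, 249.9, 74.21 and 152.8 from day 0 to day 14. The sum of both genes changed by 2.91, 1.15, 0.30 and −0.04 on the log2 scale, so the call on day 10 is lost for the sum, and reads of the shared bases cannot be told apart.

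Ccnd2 (ENSMUSG00000000184, chr6:127125162-127152193, minus strand) encodes the cyclin known for its part in neural progenitors and in lymphocytes. It had normalized counts of 660.9, 358.2, 957.8, 1021 and 517.5 in the same order. Days 5 and 10 did not differ beyond counting error. Its changes against day 0 were −0.88 (−1.12 to −0.65), 0.54, 0.63 and −0.35, none of them called, while the step from day 2 to day 5 was 1.42 (1.20 to 1.65) and was called. The step from day 10 to day 14 was −0.98 (−1.12 to −0.84). In TPM the day 14 value lies above day 0 (log2 change 0.52). Relative to genes of like length, which are the longest 10% for Ccnd2, the changes were −0.72, 0.21, −0.42 and −0.91, so that day 10 lies below day 0, day 14 is the lowest, and the step from day 2 to day 5 is 0.92 and no longer called.

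Ccnd3 (ENSMUSG00000034165, chr17:47505051-47599691, plus strand), the most widely expressed D cyclin, had normalized counts of 844.7, 802.3, 712.1, 535.2 and 582.1. Days 0 and 2 did not differ beyond counting error, nor did days 10 and 14. The changes of −0.07 (−0.24 to 0.10), −0.25, −0.66 (−0.80 to −0.52) and −0.54 were all under 2-fold, and in TPM those of days 5, 10 and 14 turn positive (0.53, 0.52 and 0.55), as they do for most genes on that scale. Bysl, which overlaps Ccnd3 on the other strand, had expected counts of 297.5, 101.2, 134.2, 115.0 and 119.8.

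Compared per length, Ccnd3 was the leading D cyclin in MEFs and Ccnd1 in the middle of the time course. The TPM of Ccnd1 was 0.296 times that of Ccnd3 in MEFs (0.265 to 0.333), then 1.18 times, 1.51 times (1.40 to 1.64), 1.22 times and at last 0.709 times (0.644 to 0.787). Both ends of the time course thus had more Ccnd3 than Ccnd1, and the 3 libraries between them had more Ccnd1. Ccnd1 and Ccnd2 were nearly level on day 0, with a TPM ratio of 1.09 (0.966 to 1.23), and furthest apart on day 2, at 7.66 (6.56 to 8.95). The TPM of all D-type cyclins summed to 235.1, 277.9, 642.6, 621.0 and 433.8. These ratios hold within each library, so they do not depend on the scaling of library sizes between days, but the overlap of Ccnd1 with LTO1 enters them. So do shifts between libraries that depend on gene length, for which the ratios were not corrected. Genes of like length had a median change on day 10 of 0.62 for Ccnd1 and −0.155 for Ccnd3.

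**Figure D2:**
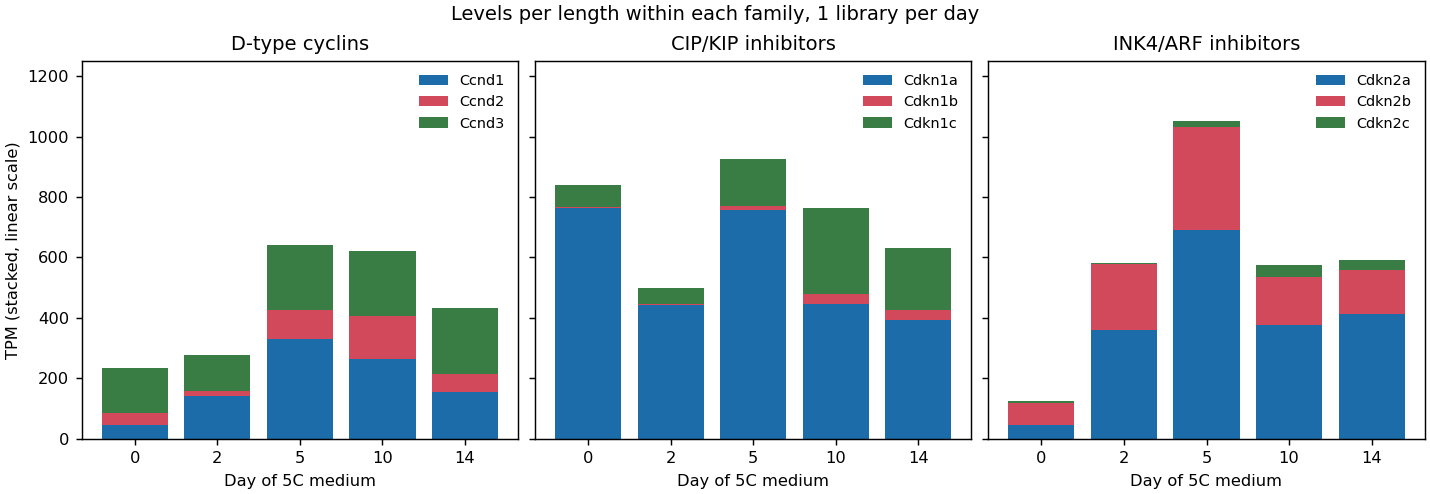
Stacked TPM (linear scale) of the D-type cyclins, the CIP/KIP inhibitors and the INK4/ARF inhibitors against the day of 5C medium, 1 library per bar and no error shown. Cdkn1a makes up most of its family on day 0 at 763 TPM of 838.5, and the INK4/ARF sum goes from 124.2 on day 0 to 1052 on day 5.

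The CIP/KIP family changed in composition: Cdkn1a was 4.06-fold lower on day 10 and 3.65-fold on day 14, Cdkn1b was 5.67-fold higher on day 10 and 6.63-fold on day 14, and Cdkn1c stayed within 2-fold of day 0 in normalized counts. Cdkn1a (ENSMUSG00000023067, chr17:29090976-29100727, plus strand) encodes p21, the CDK inhibitor that p53 switches on. It had normalized counts of 4119, 2867, 2449, 1013 and 1128. Each library in 5C medium lay below the MEFs, with the largest step between days 5 and 10. The summed skeletal muscle markers were also highest in MEFs, and their part in the Cdkn1a values was not tested. The changes were −0.52 (−0.61 to −0.44), −0.75 (−0.82 to −0.68), −2.02 (−2.11 to −1.94) and −1.87 (−1.96 to −1.78), and the gene was called lower on days 10 and 14. The step from day 5 to day 10 was −1.27 (−1.37 to −1.18). In TPM the changes of days 5, 10 and 14 are −0.01, −0.77 and −0.95, on a scale where the median of all genes is shifted by 0.61, 1.09 and 0.79, and relative to that median they are −0.62, −1.86 and −1.74.

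Cdkn1a has 2 start sites in RefSeq, 2790 bases apart. The bases before each are shown because the upstream window holds a p53 response element, the kind of sequence that the Trp53 product binds. The element was searched as a pair of abutting sites of the p53 consensus with exact cores and at most 1 mismatch elsewhere, on both strands, and 15 of 32851 promoter windows of the RefSeq table held it (0.0457%). It lies 51 to 32 bases before the upstream start and is in capitals, as is GGGCGG, the core of a GC box, which 32.7% of windows held on either strand and of which the downstream window has 2. The downstream window also holds TATAA, 25 to 21 bases before its start, as 22.8% of all windows do anywhere on either strand. The upstream window holds it on the other strand, 227 to 223 bases before its start. Both windows are given on the plus strand in GRCm38.p6, the upstream one at chr17:29090729-29090975 and the downstream one at chr17:29093519-29093768. A match is a description of letters and not evidence of binding.
Cdkn1a upstream start: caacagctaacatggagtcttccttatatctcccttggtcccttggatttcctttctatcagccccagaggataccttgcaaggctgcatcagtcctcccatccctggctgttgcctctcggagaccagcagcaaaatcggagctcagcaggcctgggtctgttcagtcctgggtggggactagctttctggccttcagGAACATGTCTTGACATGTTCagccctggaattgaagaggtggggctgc
Cdkn1a downstream start: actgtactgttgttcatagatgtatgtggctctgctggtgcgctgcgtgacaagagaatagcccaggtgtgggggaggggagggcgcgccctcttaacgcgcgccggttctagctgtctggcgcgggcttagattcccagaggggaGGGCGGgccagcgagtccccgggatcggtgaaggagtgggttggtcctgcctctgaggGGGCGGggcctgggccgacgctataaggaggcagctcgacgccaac

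Cdkn1b (ENSMUSG00000003031, chr6:134920401-134925513, plus strand) encodes p27, an inhibitor that is largely governed through its degradation and that accumulates in cells that leave the cycle. Its normalized counts were 22.76, 34.37, 59.49, 133.8 and 156.4. Days 0 and 2 did not differ beyond counting error, nor did days 10 and 14, and both late libraries lay above all earlier ones. The changes were 0.57 (−0.36 to 1.54), 1.35 (0.69 to 2.14), 2.50 (1.92 to 3.25) and 2.73 (2.15 to 3.48). It was called higher on days 5, 10 and 14, although on day 5 the interval reached below 2-fold. The day 0 value rests on 23 expected counts. The markers of Schwann cells and neural crest were highest on the same days 10 and 14, and their part in the Cdkn1b values was not tested.

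Cdkn1c (ENSMUSG00000037664, chr7:143458339-143461050, minus strand) encodes p57 and is an imprinted gene expressed from the maternal copy. It had normalized counts of 389.9, 340.1, 509.3, 685.5 and 598.9. The changes of −0.20 (−0.46 to 0.06), 0.38, 0.81 (0.64 to 0.99) and 0.62 were all under 2-fold. They are past it in TPM on days 5, 10 and 14 (1.08, 1.96 and 1.48) and with library totals on day 10 (1.28), while relative to the median of all genes in TPM they are 0.47, 0.87 and 0.69. Antisense gene models of M21 overlap Cdkn1c (Gm44732) and Cdkn1a (AC167363.2) and were not analysed here. Beside the lower Cdkn1a, the TPM of Cdkn1c went from 0.0951 times that of Cdkn1a on day 0 (0.0855 to 0.105) to 0.639 times on day 10 (0.588 to 0.694). The same ratio for Cdkn1b went from 0.00389 (0.00248 to 0.00587) to 0.0856 on day 14 (0.0728 to 0.101). Even then p27 transcripts were the least abundant of the family.

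Among the INK4 and ARF genes, Cdkn2a was 9.68-fold and Cdkn2b 3.46-fold higher on day 2 than in MEFs. Cdkn2b did not differ from day 0 beyond counting error on days 10 and 14, whereas Cdkn2a was still over 2-fold higher, and Cdkn2c was 4.22-fold higher on day 5. Cdkn2a (ENSMUSG00000044303, chr4:89274471-89294653, minus strand) had normalized counts of 108.9, 1062, 1037, 408.5 and 546.1. Days 2 and 5 did not differ beyond counting error, and all libraries in 5C medium lay far above day 0. The changes were 3.27 (2.99 to 3.59), 3.24 (2.97 to 3.55), 1.90 (1.61 to 2.22) and 2.32 (2.03 to 2.63), called on all 4 days. The step from day 5 to day 10 was −1.34 (−1.49 to −1.20), called lower, but it was −0.87 in TPM and −0.60 relative to genes of like length, where the call is lost. Short genes as a class had lower counts late in the series: the shortest 10% of genes, which holds Cdkn2a, had median changes of 0.22, −0.79, −1.47 and −1.04. Relative to that class, Cdkn2a changed by 3.06, 4.04, 3.37 and 3.36 on the 4 days.

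Cdkn2b (ENSMUSG00000073802, chr4:89306299-89311039, minus strand) encodes p15Ink4b, which TGF-beta is known to induce. It had normalized counts of 295.9, 1028, 821.7, 277.1 and 317.3. The libraries of days 2 and 5 stood above the other 3, which did not differ beyond counting error. The changes were 1.79 (1.59 to 2.00), 1.47 (1.28 to 1.67), −0.10 (−0.32 to 0.13) and 0.10 (−0.13 to 0.33), and the step from day 5 to day 10 was −1.57 (−1.74 to −1.40). On day 10 the change is 1.06 in TPM and 0.76 relative to genes of like length, so its sign depends on the scale there. Cdkn2a was 0.588 times as abundant as Cdkn2b in TPM on day 0 (0.463 to 0.727), and 1.65, 2.02, 2.39 and 2.78 times (2.42 to 3.16 on day 14) afterwards. The summed macrophage markers were lowest on day 0 (261.1), highest on day 5 (4327) and at 2660 and 1967 on days 10 and 14. Cdkn2b was highest on day 2 and did not differ from day 0 on days 10 and 14. The part of these markers in the values of Cdkn2a and Cdkn2b was not tested.

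Cdkn2a and Cdkn2b lie side by side on chromosome 4, with 16413 bases between the start of p19Arf and that of Cdkn2b and 12427 bases between the starts of p19Arf and p16Ink4a. The neighbour Mtap, which encodes an enzyme of methionine salvage and was looked up after the other values had been seen, had normalized counts of 393.9, 327.6, 257.5, 163.5 and 175.2. Its changes of −0.27, −0.61, −1.26 and −1.16 thus had the sign opposite to those of Cdkn2a. The windows before the 3 start sites are shown because the locus is read from each of them separately. They are on the minus strand of GRCm38.p6, at chr4:89294654-89294869 for p19Arf, chr4:89282193-89282442 for p16Ink4a and chr4:89311040-89311282 for Cdkn2b, cut where an annotated exon begins. Capitals mark GGGCGG, which was found once before p19Arf and not in the other windows. The p19Arf window also holds TTCCCGC, an E2F motif core, 98 to 92 bases before the start, as 3.82% of all windows do on either strand, and none of the 3 holds the p53 response element as searched. GC content was 78.7% before p19Arf, 60.0% before p16Ink4a and 53.5% before Cdkn2b.
Cdkn2a p19Arf start: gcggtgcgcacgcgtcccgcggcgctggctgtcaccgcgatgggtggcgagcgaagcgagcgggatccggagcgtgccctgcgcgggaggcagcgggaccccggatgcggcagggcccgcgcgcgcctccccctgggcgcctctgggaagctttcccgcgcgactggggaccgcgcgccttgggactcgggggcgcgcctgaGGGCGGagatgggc
Cdkn2a p16Ink4a start: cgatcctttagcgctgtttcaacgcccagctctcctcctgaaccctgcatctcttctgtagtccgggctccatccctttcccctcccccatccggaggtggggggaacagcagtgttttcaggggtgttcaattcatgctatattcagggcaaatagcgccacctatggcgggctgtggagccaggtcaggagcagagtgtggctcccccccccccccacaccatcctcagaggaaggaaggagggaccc
Cdkn2b start: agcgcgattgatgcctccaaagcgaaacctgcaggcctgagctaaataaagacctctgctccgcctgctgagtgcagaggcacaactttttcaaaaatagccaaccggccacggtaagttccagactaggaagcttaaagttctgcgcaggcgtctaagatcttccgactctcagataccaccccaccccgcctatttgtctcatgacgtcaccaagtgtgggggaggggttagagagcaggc

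The deposited length of Cdkn2a, which RSEM averages over transcripts by their abundance, carries a trace of which start was used. The p16Ink4a transcript (ENSMUST00000060501) is 852 bases long in GENCODE M21 and the p19Arf transcript (ENSMUST00000107131) 895 bases. In the order of the days the mean length was 880.52, 889.44, 876.21, 863.9 and 867.28 bases. Day 2 was thus nearest to p19Arf and day 10 nearest to p16Ink4a. Read as a mixture of these 2 lengths, the share of p16Ink4a was 33.7%, 12.9%, 43.7%, 72.3% and 64.5%. This corresponds to 29.4, 313, 388, 104 and 146 TPM for p19Arf and 14.9, 46.5, 301, 272 and 265 TPM for p16Ink4a.

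The split is an estimate that depends on the exact transcript lengths in the authors' annotation, which is not given in the sources used here. Of 13339 genes with 1 transcript, 66.4% had the M21 length. Of 11317 values of genes with 2 transcripts, 88.7% lay between the 2 M21 lengths. With either length wrong by up to 10 bases the share of p16Ink4a would lie between 13.6 and 46.2% in MEFs, −13.5 and 29.4% at day 2, 26.6 and 56.9% at day 5, 58.7 and 94.2% at day 10, and 52.3 and 84% at day 14. The ranges of days 2 and 10 do not meet, while those of neighbouring values overlap. Such an error would be shared by all libraries, so it would move the shares but not the order of the days. The counts behind RSEM's split of the shared exons are not in these values, so the estimate has no counting interval.

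**Figure D3:**
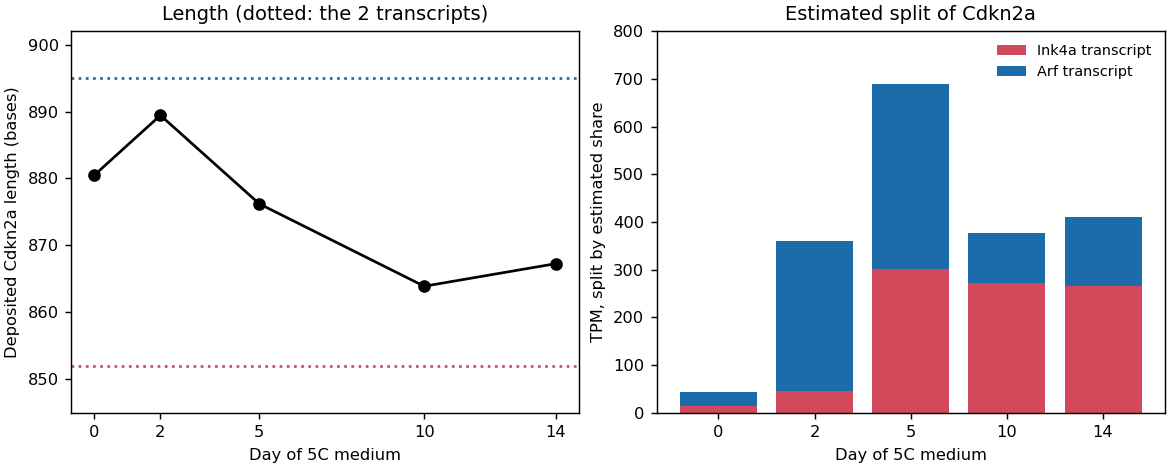
Left, the deposited mean length of Cdkn2a in bases on each day, with dotted lines at the p19Arf (895) and p16Ink4a (852) transcripts. Right, the TPM of Cdkn2a split by the share that this length gives, 1 library per bar and no error shown: p19Arf is the larger part on days 0, 2 and 5 and p16Ink4a on days 10 and 14.

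Cdkn2c (ENSMUSG00000028551, chr4:109660876-109667189, minus strand) encodes p18Ink4c, an INK4 inhibitor known from differentiating cells. It was a low gene, with normalized counts of 15.83, 12.66, 70.00, 72.84 and 65.25. The libraries fell into a pair of low ones (days 0 and 2) and 3 higher ones, and neither set differed within itself beyond counting error. The changes were −0.30 (−1.85 to 1.04), 2.08 (1.36 to 3.02), 2.13 (1.43 to 3.06) and 1.98 (1.25 to 2.92), called on days 5, 10 and 14, and the step from day 2 to day 5 was 2.38 (1.36 to 3.83). The day 2 value rests on 7 expected counts. The remaining INK4 gene, Cdkn2d (p19Ink4d), which was not among the chosen genes, had normalized counts of 70.26, 95.88, 79.63, 52.84 and 65.25, and none of its changes exceeded 2-fold.

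Trp53 (ENSMUSG00000059552, chr11:69580359-69591873, plus strand) encodes p53, which is regulated mainly at the level of protein. Its normalized counts were 482.1, 197.2, 382.0, 257.8 and 242.6. All libraries in 5C medium lay below day 0, and as neighbours in order of level, day 2 and day 14 did not differ beyond counting error, nor did day 14 and day 10. The changes were −1.29 (−1.60 to −0.99), −0.34 (−0.52 to −0.15), −0.90 (−1.10 to −0.70) and −0.99 (−1.21 to −0.78), of which day 2 was called, with an interval that just reaches under 2-fold. The step from day 2 to day 5 was 0.95 (0.65 to 1.27). In TPM the changes of days 5 and 10 are positive (0.37 and 0.19), but relative to the median of all genes on that scale they are −0.24 and −0.91. The lowest counts of Trp53 and Cdkn1a were on different days: the lowest Trp53 count was on day 2, when Cdkn1a was 1.44-fold below day 0, and the lowest Cdkn1a count on day 10.

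Set beside all 13346 genes whose expected count was at least 10 in some library, the calls were as follows. On day 2, Ccnd1, Cdkn2a and Cdkn2b were called higher, 3 of 10, where 15.2% of all genes were, and Trp53 lower, 1 of 10, where 13.1% were. On day 5 Cdkn1b and Cdkn2c joined them, which made 5 of 10 higher against 20.2% of all genes, and 0 of 10 were lower against 13.6%. On day 10 Ccnd1, Cdkn1b, Cdkn2a and Cdkn2c were higher, 4 of 10 against 28.7%, and Cdkn1a lower, 1 of 10 against 22.3%. On day 14 Cdkn1b, Cdkn2a and Cdkn2c were higher, 3 of 10 against 24.5%, and Cdkn1a lower, 1 of 10 against 19.9%. The counts of days 10 and 14 and those of lower genes were near these shares. The median change of the 10 genes was −0.14, 0.94, 0.72 and 0.36, beside −0.03, 0.05, 0.14 and 0.07 for all genes.

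Between neighbouring days, Ccnd2 and Cdkn2c were called higher from day 2 to day 5, 2 of 10 against 19.0% of all genes, and 0 of 10 lower against 12.5%. From day 5 to day 10 Cdkn1b was called higher, 1 of 10 against 12.8%, and Cdkn1a, Cdkn2a and Cdkn2b lower, 3 of 10 against 9.5%. In TPM, Cdkn2b (−1.11) was the 1 gene of them still past 2-fold, with Cdkn1a at −0.76 and Cdkn2a at −0.87, and relative to the median of all genes in TPM all 3 were past it again (−1.15, −1.26 and −1.50) while Cdkn1b was at 0.86. From day 10 to day 14 none of the 10 genes was called, where 4.73% of all genes were higher and 8.33% lower.

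**Figure D4:**
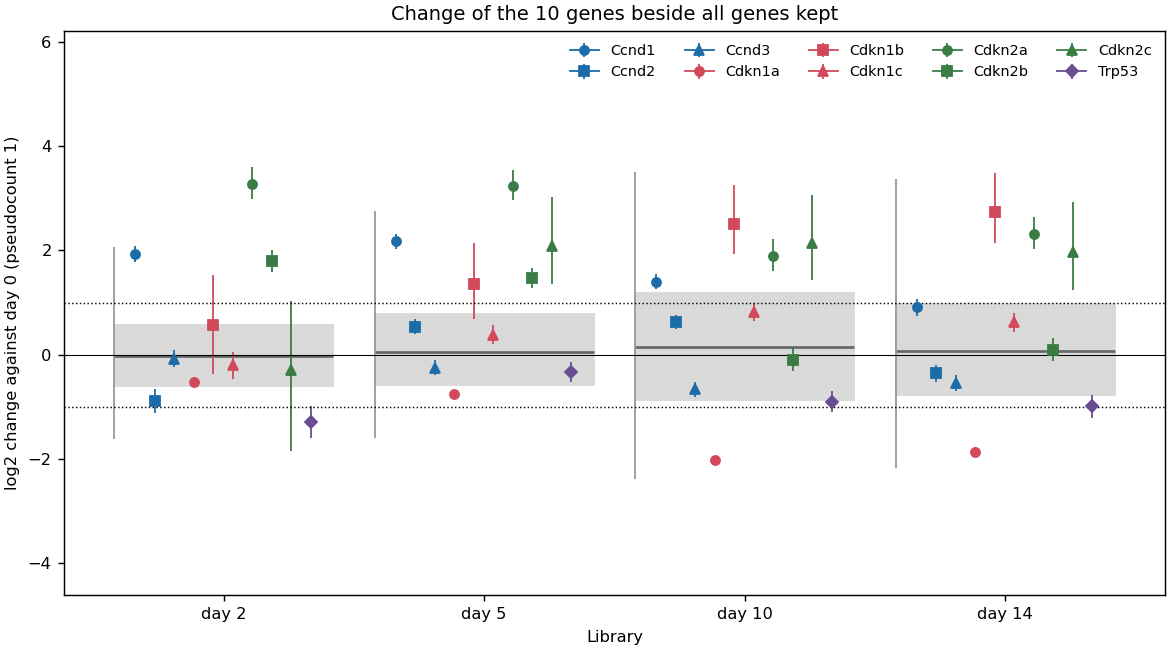
Log2 changes of the 10 genes against day 0 on days 2, 5, 10 and 14 with 95% counting intervals. Grey boxes show the middle 50% of all 13346 genes with the median as a line, the thin grey line at the left of each box spans the middle 90%, and dotted lines mark 2-fold. Cdkn2a lies above the box on each day and Cdkn1a below it on days 10 and 14.

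In order of TPM within each library, Cdkn1a led on days 0, 2, 5 and 10, at 762.98, 443.14, 758.63 and 447.11. On day 14 Cdkn2a (411.19) and Cdkn1a (393.27) did not differ beyond counting error. Cdkn2a stood next below Cdkn1a from day 2 to day 10, while on day 0 Cdkn1a was 17.2 times as abundant (14.5 to 21.3). Cdkn1b and Cdkn2c were the lowest pair in each library, and differed from each other beyond counting error on day 5 (12.92 and 21.12 TPM) but not on the other days.

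The other genes of the pathway were taken in lists that were chosen with earlier results of these data known. Their changes were not set against genes of like length. On day 10 the median change was −1.47 for the shortest 10% of all genes and 1.04 for the longest 10%, so length may enter the changes of listed genes. Of 6 kinases, E cyclins and activators of G1, 3 were called lower on day 10 and 1 higher, against 22.3% and 28.7% of all genes, with a median of −0.76 on the normalized scale; the median is 0.52 in TPM, under the TPM median of all genes (1.09). Cdk4, the partner of the D cyclins and target of INK4 proteins, had normalized counts of 2281, 2218, 1387, 782.1 and 875.5, a change of −1.54 (−1.65 to −1.44) on day 10. Its TPM was 938.6, 637.9, 925.9, 682.3 and 676.5 in the order of the days. Cdc25a, the phosphatase that activates CDK2, changed by −1.41 (−1.90 to −0.95).

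Of 13 pocket proteins and E2F factors 6 were called higher and 0 lower on day 10, against 28.7% and 22.3% of all genes, and 3 higher and 2 lower on day 14, against 24.5% and 19.9%. The counts of day 14 were near those shares. Rbl2, the retinoblastoma relative p130 that holds E2F genes silent in resting cells, had normalized counts of 8.97, 17.86, 71.86, 116.7 and 91.42. That is a change of 3.56 (2.75 to 4.86) on day 10, when Tfdp1, the partner of E2F factors, changed by 1.48 (1.12 to 1.89). On day 2 Tfdp1 was lower, at 9.05 normalized counts against 72.24 (−2.87, −4.66 to −1.71). This low value of Tfdp1, from the shallow day 2 library, and the day 0 value of Rbl2 rest on few counts, hence the wide intervals. Of 16 proliferation markers 5 were called higher on day 5 and 13 lower on day 14, against 20.2% and 19.9% of all genes, with medians of 0.17, 0.87, 0.15 and −1.94 over the 4 days and of −0.94 in TPM on day 14. Mki67, the marker of cycling cells, had normalized counts of 120.7, 309.4, 311.5, 340.0 and 25.03. Its counts on days 2, 5 and 10 were thus close to each other, and day 14 was the lowest. On day 10 Mki67 was the 1 of the 16 markers called higher, and 0 were called lower, against 28.7% and 22.3% of all genes.

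Calls among the p53 regulators and target genes went in both directions on day 10, in numbers near the shares of all genes. Of 10 regulators 4 were called higher and 1 lower on day 10, against 28.7% and 22.3% of all genes. Mdm2, the ligase that degrades p53 and itself a p53 target, had normalized counts of 1208, 955.2, 1260, 486.4 and 307.2, with a change of −1.31 (−1.45 to −1.18) on day 10. Its relative Mdm4 changed by 1.93 (1.65 to 2.23) on day 10 and Trp53bp1, which gathers at DNA breaks, by 1.04 (0.74 to 1.37). On day 2 Trp53bp1 was the 1 regulator called, lower at −1.35 (−2.08 to −0.73). Of 27 p53 target genes with enough counts, 2 were called higher and 2 lower on day 2, 4 and 3 on day 5, 6 and 8 on day 10, and 6 and 11 on day 14. The shares of all genes called higher and lower were 15.2% and 13.1%, 20.2% and 13.6%, 28.7% and 22.3%, and 24.5% and 19.9% on these days. Their median change was 0.10, 0.19, −0.38 and −0.67, and in TPM −0.16, 1.01, 0.80 and 0.29.

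Named here were the largest falls and rises on day 10 among targets whose expected count reached 100 on some day. That both directions appear is thus set by the choice. Bax, which permeabilizes mitochondria in apoptosis, had normalized counts of 1903, 2224, 936.3, 328.5 and 396.0, and Phlda3, an inhibitor of Akt, 1992, 1851, 898.8, 379.2 and 547.7. Bax and Phlda3 were named for the largest falls on day 10 in this list, so their low on that day is largely set by the choice. Ptprv, a phosphatase that p53 induces in mouse, had counts of 149.8, 509.8, 722.5, 666.4 and 561.5, and Trp53inp1, a partner of p53 in stress, 191.0, 291.3, 693.0, 714.1 and 320.9. Ptprv and Trp53inp1 were named for the largest rises on day 10, so their height on that day is likewise largely set by the choice. Both lay above day 0 in each later library.

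Of 11 genes for the turnover of cyclin D and p27, 3 were called lower and 0 higher on day 10, against 22.3% and 28.7% of all genes, so the lower ones were near the share of all genes. Among them, Rbx1, the RING subunit of cullin ligases, changed by −1.97 (−2.18 to −1.77), and Cks1b, the cofactor with which Skp2 recognizes p27, by −1.74 (−2.06 to −1.46). Of 11 Polycomb group repressors, which silence the Cdkn2a and Cdkn2b locus in many cell types, 2 were called higher and 1 lower on day 10, against the same shares. Bmi1, the member best known for this, had normalized counts of 92.04, 63.32, 126.9, 202.8 and 156.4, and changed by 1.13 (0.80 to 1.49) on day 10, while Phc2 changed by −1.19 (−1.36 to −1.02).

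Of 16 transcription regulators of CDK inhibitor genes 7 were called higher and 2 lower on day 10, against 28.7% and 22.3% of all genes. Myc, which represses Cdkn1a, Cdkn1b and Cdkn2b in many cells and is an early response gene of serum, had normalized counts of 501.7, 77.79, 97.13, 107.8 and 169.8. Each library in 5C medium lay far below the MEFs. Foxo1, a factor that induces Cdkn1b and is held back by insulin signals, had counts of 44.53, 65.16, 73.50, 154.2 and 236.9. On day 10 Sp3, which binds GC boxes, changed by 1.87 (1.56 to 2.23), and Hes1, a Notch target that represses Cdkn1b, by −2.09 (−2.38 to −1.82).

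Of 13 senescence-associated genes with enough counts, 5 were called higher and 2 lower on day 2, 9 and 3 on day 5, and 6 and 3 on days 10 and 14. Of all genes, 15.2, 20.2, 28.7 and 24.5% were higher and 13.1, 13.6, 22.3 and 19.9% lower on the 4 days. The numbers of lower genes on days 2, 10 and 14 were near these shares. The metalloproteinase Mmp3 went from 17.75 normalized counts on day 0 to 3025, 6979, 2109 and 1870, and Mmp13 from 6.93 to 191.8, 712.3, 742.5 and 408.0. Timp1, an inhibitor of metalloproteinases, was at 4133, 7209, 2059, 242.3 and 523.8. The named genes of this list had changes of opposite sign on days 5, 10 and 14, when Cdkn2a counts were above day 0. They were named for the largest rises and falls on day 10, so opposite signs on that day are set by the choice.

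**Figure D5:**
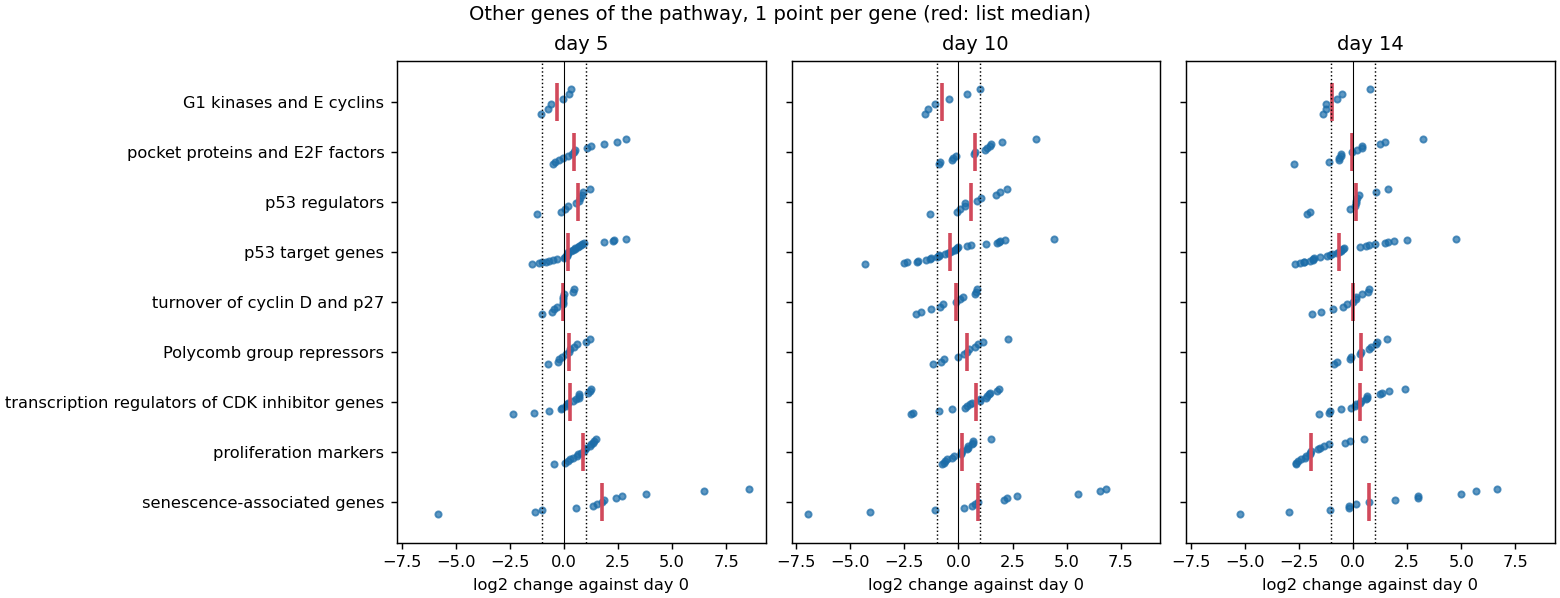
Log2 change against day 0 on days 5, 10 and 14 of the other genes of the pathway, 1 point per gene with enough counts in each list, with list medians in red and dotted lines at 2-fold. The proliferation markers have a median of 0.87 on day 5 and −1.94 on day 14, and the senescence-associated genes spread the furthest.

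The genes with the profile most like each of the 10 were searched by the root mean square difference of the log2 changes over the 4 later days, among the 3270 genes whose expected count was at least 100 on all days. Ccnd3 had the closest ones, Uba1 at 0.02 and Cdc16 at 0.06. For Cdkn1a they were Gng10 at 0.11 and Ybx1 at 0.15, for Cdkn1c Chd4 and Wasf2, for Trp53 Ap3s1 at 0.16, and for Cdkn1b Zfp36l1 and Igfbp3. The metallothioneins Mt1 (0.21) and Mt2 (0.24) were nearest to Cdkn2b, with changes of 1.78, 1.29, −0.30 and −0.22 for Mt1. Fth1 and Gstm1 were nearest to Ccnd1 and Timp3 and Adam19 to Ccnd2. Cdkn2a had no near neighbour, with Crabp1 at 0.58 and Mterf4 at 0.60. Likeness here is over 4 values that share the day 0 library.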

How the data were processed

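RNA was measured in 1 library per time point, and libraries were assigned by their labels. The authors deposited expected counts, which RSEM estimates per gene without scaling for library size, and TPM values, which are corrected for gene length and add up to 1000000 in each library. The deposited mean gene lengths were used for the Cdkn2a estimate, and FPKM values were not used. The submitters' processing notes name Bowtie, RSEM and mm10; versions and annotation are not given in the sources used here. Symbols and coordinates came from GENCODE M21 (GRCm38), which held 27247 of the identifiers.

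Expected counts were rounded for TMM library sizes (edgeR 4.0.16, R 4.3.3), and unrounded counts were divided by them. A pseudocount of 1, a minimum expected count of 10 in at least 1 library and a threshold of 2-fold were used. Intervals were exact Clopper-Pearson intervals of both counts, at 95%. Scripts ran in Python 3.11.15 (scipy 1.17.1, numpy 2.4.6, matplotlib 3.10.9, pandas 2.3.3) and were tested on simulated data. Promoter windows came from a RefSeq table (GRCm38.p6), in which 7 of the 10 genes matched, without bases in M21 exons.

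The 10 genes and all lists were chosen with earlier results of these data known. Named from each list were up to 2 genes with the largest rise and up to 2 with the largest fall on day 10, among genes over 2-fold whose expected count reached 100 on some day. Some genes that the rules name are not reported here. The alternatives were DESeq2 size factors (1.42.0), library totals, TPM, library sizes without Gm42418 and Lars2, change relative to genes of like length, a pseudocount of 5, a 4-fold threshold, whole intervals past 2-fold and other count filters. TPM relative to the median of all genes, Ccnd1 summed with LTO1, and the scalings of the steps between neighbouring days were alternatives chosen after seeing the data.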

Additional observations from a re-analysis of the deposited data

How the results depend on the processing

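With 1 library per day, differences between cultures, days of harvest and library preparations cannot be told apart from the effect of the medium. No paired analysis was possible because each day has 1 library, and for the same reason no library could be left out. The numbers of genes called against day 0 stayed within 1.5 times under library totals, library sizes without Gm42418 and Lars2, genes of like length, a pseudocount of 5 and TPM relative to its median. They moved under the following settings, and the cause was not tested unless the setting itself gives it. At 4-fold, 1 gene was higher and 0 lower on day 2, 3 higher on day 5, 2 higher on day 10 and 0 lower on day 14. In TPM, 2 were lower on day 2, 7 higher and 0 lower on day 10, and 5 higher and 0 lower on day 14, on a scale whose median over all genes is −0.20, 0.61, 1.09 and 0.79 on the 4 days. With the whole interval required to lie past 2-fold, 0 were lower on day 2. With DESeq2 size factors, 2 were lower on day 14, as Trp53 reached −1.01. Of the 40 changes against day 0, the sign was opposite for 4 with library totals, 7 in TPM, 2 relative to genes of like length and 0 with DESeq2 size factors, and no called change turned sign. Relative to genes of like length Ccnd1 was 0.78 on day 10 and no longer called. Between neighbouring days, 5 genes were higher from day 2 to day 5 with library totals and 6 in TPM, 1 was lower from day 5 to day 10 in TPM, 0 were higher on that step in TPM relative to its median, and 1 was lower from day 10 to day 14 with library totals, in TPM and in TPM relative to its median (Ccnd2).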

Other observations

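The deposited mean lengths of Cdkn2c and Cdkn1b also differed between days. For Cdkn2c, read as a mixture of the 1106-base transcript and the 2471-base transcript of GENCODE M21, the longer one had a share of 10.2%, 13%, 59.2%, 25.4% and 15.8% in the order of the days. The day 5 library thus had the largest share, on 80 expected counts. For Cdkn1b, with transcripts of 2393 and 4552 bases, the longer one had a share of 14.0%, 0.0%, 12.1%, 41.8% and 28.2%. These shares carry the same limits as those of Cdkn2a and come from 7 to 187.33 expected counts.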
